A study of Mus musculus with 2 samples.

Results

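The 42 genes described here are transcribed in cells that copy their DNA and divide. They are a list of known cell cycle genes that was put together with earlier results of these cells known, and the genes that lead cluster 7 are among them. All 42 were found among the 13528 genes of the filtered molecule table of mouse liver immune cells. Each was followed in every cell type name and in each of the 30 clusters that came with the cells, in TG against WT. Cluster 7, deposited under the name CD8αβ T, is the cluster in which their summed level was highest. It was formed from expression that included these genes, so their level in it is a description, and most of the account concerns cells elsewhere that held the same transcripts.

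CD45+ cells, which the study calls hepatic immune cells, were isolated from the livers of C57BL/6 mice. The labels give the mice as 10 weeks old and the methods of the study as somewhat younger. Polyadenylated transcripts and 49 antibody tags were counted per cell by microwell capture. TG mice (dnTGFβRII) are a model of autoimmune cholangitis. Their transgene is a human TGF-β receptor chain that blocks signalling, and the mouse CD4 promoter limits it to T cells. WT mice were the wild type controls.
TG cells were captured in a library pooled with IFN-γ ARE-Del-/- mice, and WT cells in a library pooled with P40-/-IL-2Ra-/- mice. The cell table names a genotype for TG and WT cells only. Each genotype was therefore 1 library, there was no replicate, no test between genotypes was possible, and for every difference given below the genotype cannot be told apart from the library. Intervals are 95% and cover counting error only. Counts of members with an interval above or below 0 have no share of all genes beside them, so they cannot be read as particular to the list.

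The cells named TG numbered 4647 and held 18498477 unique molecules (UMIs), with a median of 3298 per cell, and those named WT numbered 7282 and held 22216379 UMIs, with a median of 2654. Cells of the libraries that have no genotype name are in no comparison of TG with WT and are described apart, beside the named cells, near the end. Of the barcodes of named cells, 36 occurred in both libraries. Doublet calls by Scrublet took in 0.839% of the named TG cells and 3.31% of the named WT cells, and 11.9% and 4.94% held at least 2 UMIs of both T and B cell markers. Levels are given as CPM, the UMIs of a gene per 1000000 UMIs of the cells named.

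The list follows the order of the cycle. The licensing factors Mcm2 to Mcm7 form the helicase that is loaded onto DNA before it is copied, the clamp Pcna and its partner Pclaf travel with the fork, and enzymes such as Rrm2, Rrm1, Tyms, Tk1 and Dut supply nucleotides. Cyclins with their kinase Cdk1 drive entry into mitosis, spindle and centromere proteins separate the chromosomes, and Cdc20 and Ube2c direct the destruction of the mitotic cyclins. Such transcripts are found in lymphocytes that divide and in myeloid precursors that still divide, and do not show where a cell began to divide.

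Genes of early and late phases are known to be read by different regulators, which bind E2F sites or the cell cycle homology region (CHR), often beside CCAAT boxes, and 4 promoters are shown as examples that hold an E2F site, a CHR or both beside CCAAT. Capitals mark these sites on either strand, and they run on where sites touch or overlap. The CHR was searched as TTTGAA and in its variant form as TTCGAA, and the CCAAT box by those letters. The E2F site was searched as TTTGGCGC, as the alternative spelling TTTCGCGC, as the further spelling TTTCCCGC and as the last spelling TTTGCCGC. The windows are the 150 bases before the RefSeq start in GRCm38, written in the direction of the gene. They are chr1:128359706-128359855, minus strand for Mcm6, chr10:69352913-69353062, minus strand for Cdk1, chr11:99024190-99024339, minus strand for Top2a and chr2:164769779-164769928, plus strand for Ube2c.
Mcm6: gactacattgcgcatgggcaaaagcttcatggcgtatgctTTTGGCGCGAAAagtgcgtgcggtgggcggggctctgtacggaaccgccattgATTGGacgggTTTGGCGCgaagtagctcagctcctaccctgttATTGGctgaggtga
Cdk1: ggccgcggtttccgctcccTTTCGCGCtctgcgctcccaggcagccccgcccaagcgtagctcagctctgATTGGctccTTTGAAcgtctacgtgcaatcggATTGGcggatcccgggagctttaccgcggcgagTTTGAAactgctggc
Top2a: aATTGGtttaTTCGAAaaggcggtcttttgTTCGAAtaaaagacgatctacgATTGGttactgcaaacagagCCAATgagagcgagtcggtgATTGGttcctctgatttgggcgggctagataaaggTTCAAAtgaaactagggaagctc
Ube2c: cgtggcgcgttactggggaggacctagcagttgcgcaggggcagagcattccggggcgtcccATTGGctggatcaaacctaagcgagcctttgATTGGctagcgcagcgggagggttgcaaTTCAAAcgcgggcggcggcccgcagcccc
Mcm6, a helicase subunit, held E2F and CCAAT sites, Cdk1 held all 3 kinds, and Top2a, which untangles chromosomes, and Ube2c held CHR and CCAAT sites. RefSeq promoters were matched for 34 of the 42 genes and searched over the 250 bases before the start. CCAAT was present in 29 of 34 (85.3%) and in 37.5% of the 27025 genes with a window. CHR was present in 12 of 34 (35.3%) against 19.6% of all genes, and each of these 12 also held CCAAT, a pair found in 7.001% of all genes. An E2F site of these spellings was present in 5 of 34 (14.7%) against 2.16%, and the 5 genes were Cdk1, Mcm5, Mcm6, Mcm7 and Uhrf1, so 4 of the 5 belong to replication. A match describes letters and is not a shown site of binding.

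Most molecules of the list lay in cluster 7 in TG and fewer did so in WT. In all, 65592 member UMIs were counted in TG (3546 CPM) and 42042 in WT (1892 CPM), a log2 ratio of 0.91 (0.89 to 0.92). Cluster 7 held 319 TG cells (6.86%) and 132 WT cells (1.81%), and it held 69.4% of member UMIs in TG and 43.8% in WT. Its cells were deep, with a median of 7454 UMIs in TG and 6614 in WT against 3205 and 2636 elsewhere, and they held 13.1% and 4.22% of all UMIs. The 42 members summed to 18816 CPM in cluster 7 in TG and 19628 CPM in WT. The next cluster in TG and in WT was cluster 24, named neutrophil, at 4111 and 6912 CPM.

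The share of a gene's UMIs in cluster 7 differed by its role. Among spindle, centromere and chromosome genes the median share of UMIs in cluster 7 was 86.2% in TG and 76.6% in WT, and among cyclins, kinases and destruction factors it was 84.5% and 74.5%. Nucleotide supply genes had 69.4% and 41.3%, and replication genes 54.2% and 27.6%. Nusap1, a spindle protein, had 91.3% of its UMIs there in TG and 86.6% in WT. Mki67, the gene of the Ki-67 antigen, had 83.5% and 70.9%. Pcna, which also serves DNA repair, had 35.7% and 12.8%, the lowest share of the list in both libraries. Hmgb2, a chromatin protein, had 58.0% and 31.9%. Under 50% of UMIs lay in cluster 7 for 5 genes in TG and 13 in WT.

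**Figure D1:**
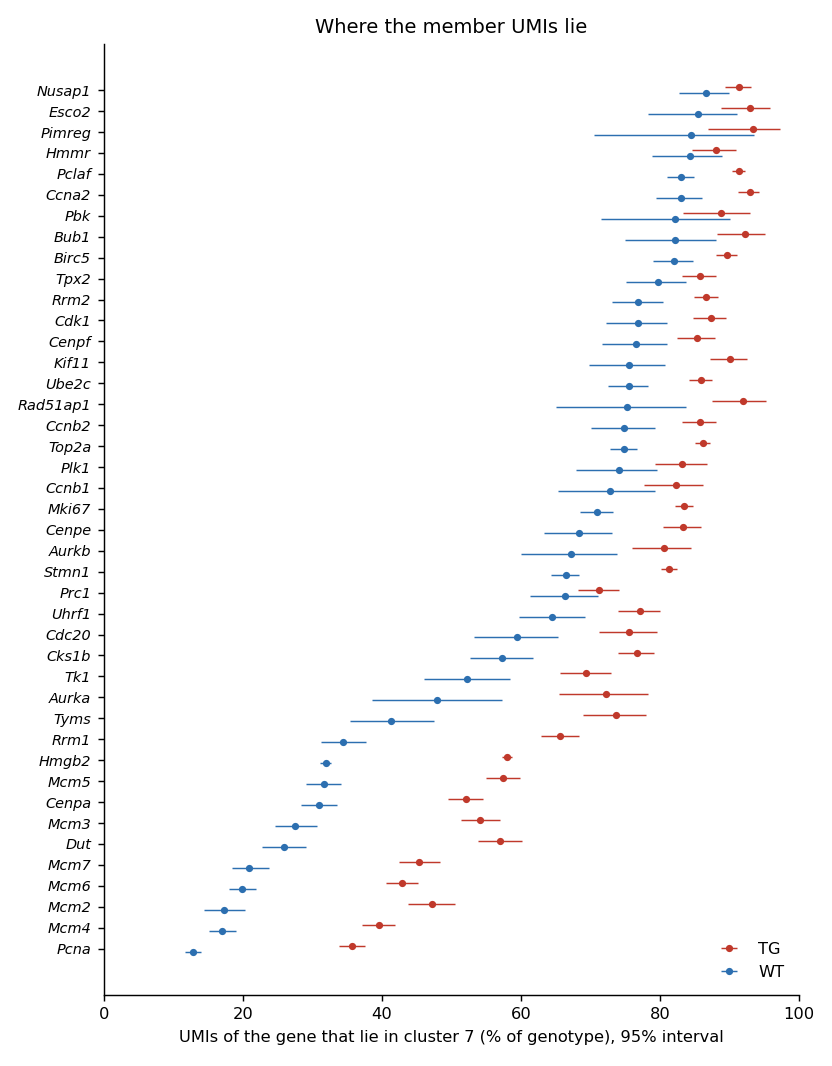
Share of each gene's UMIs that lay in cluster 7, as a percent of its UMIs in that genotype, with 95% Clopper-Pearson intervals, TG in red and WT in blue, ordered by the WT share. Pcna is lowest in both (35.7% in TG and 12.8% in WT), and Nusap1 is highest in WT at 86.6%.

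Across all cells, the whole list was higher in TG with the exception of Pcna. Of 42 genes, 29 were at least 2-fold higher in TG, against 5.01% of the 12824 genes with at least 20 UMIs, and 41 intervals lay above 0. The median log2 ratio of the list was 1.23, and that of all genes was -0.02. Rrm2, the regulated subunit of ribonucleotide reductase, was highest, at 84.8 CPM in TG against 23.99 CPM in WT (log2 1.82, 1.68 to 1.97). Pbk, a mitotic kinase, had a log2 ratio of 1.62 (1.22 to 2.03) and Prc1, which bundles the microtubules of the central spindle, 1.60 (1.42 to 1.77). Mki67 was at 176.6 CPM in TG against 61.6 CPM in WT, and Top2a at 229.5 and 89.0 CPM. At the other end Pcna was at 146.3 CPM in TG against 148.6 CPM in WT (log2 -0.02, -0.10 to 0.05), Mcm4 had a log2 ratio of 0.39 and Mcm6 of 0.43. Since cluster 7 was 6.86% of TG cells and 1.81% of WT cells, these ratios mix the number of such cells with the level in each.

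Within cluster 7 the members were at close levels in both libraries. Plasma cell markers there were at 184.0 CPM in TG and 1174 in WT, NK markers at 519.7 and 303.7, erythroid markers at 0.413 and 70.3 and T cell markers at 3202 and 3118, and their part in the ratios was not tested. None of the 42 genes was at least 2-fold higher in TG (4.85% of 8994 genes) and none at least 2-fold lower (3.22%). The median log2 ratio was -0.04, and 4 intervals lay above 0 and 10 below. Mcm2 was at 165.8 CPM in TG against 122.5 CPM in WT (log2 0.44, 0.13 to 0.75), Rrm2 at 561.9 and 436.9 CPM (0.36, 0.20 to 0.53), and Tk1, which salvages thymidine, at 181.1 and 147.1 CPM (0.30, 0.02 to 0.59). Esco2, a cohesin acetyltransferase, was lowest at 87.2 and 119.3 CPM (log2 -0.45, -0.79 to -0.11), followed by the checkpoint kinase Bub1 (-0.38, -0.70 to -0.05) and the mitotic kinase Plk1 (-0.37, -0.64 to -0.10). The others with an interval below 0 were Hmmr, Cenpa, Cdc20, Ube2c, Mcm5, Pcna and Hmgb2, and so came from several roles.

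Outside cluster 7 the mitotic genes were higher in TG, and the replication genes were mostly higher by less. The summed level was 1249 CPM in TG against 1110 CPM in WT, a log2 ratio of 0.17 (0.14 to 0.20). Of the 41 genes with enough UMIs, 6 were at least 2-fold higher in TG, against 4.09% of all genes, and none was 2-fold lower. Their median log2 ratio was 0.55, with 37 higher, 26 intervals above 0 and 1 below. The share of all genes with an interval clear of 0 was not determined.

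The spindle gene Pimreg had 7 UMIs in each library and was not counted. All 10 other spindle, centromere and chromosome genes were higher in TG outside cluster 7, and 9 intervals lay above 0 (median log2 0.79). Prc1 was at 17.1 CPM in TG against 6.02 CPM in WT, from 275 and 128 UMIs (log2 1.51, 1.2 to 1.82), the largest ratio of the 41 genes. Tpx2, which activates the Aurora A kinase on the spindle, was at 7.15 and 3.29 CPM (1.12, 0.68 to 1.57). Top2a was at 36.4 and 23.4 CPM (0.64, 0.46 to 0.81), Birc5, the survivin subunit of the chromosomal passenger complex, at 10.9 and 6.20 CPM (0.81, 0.48 to 1.15), and Cenpa, the centromeric histone, at 47.3 and 42.7 CPM (0.15, 0.00 to 0.29). The 12 cyclins, kinases and destruction factors were all higher too, with 8 intervals above 0 and a median of 0.59. Ube2c was at 15.1 and 10.3 CPM, Cks1b, a subunit of cyclin-dependent kinases, at 15.4 and 9.73 CPM, Cdk1 at 6.53 and 4.04 CPM and Ccna2, cyclin A, at 5.29 and 4.09 CPM, where the interval of Ccna2 (-0.08 to 0.82) held 0.

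The 11 replication genes had a median log2 ratio of 0.11 outside cluster 7, with 10 of 11 higher in TG, 4 intervals above 0 and 1 below. Pcna was lower in TG, at 108.2 CPM against 135.3 CPM (log2 -0.32, -0.41 to -0.24). Mcm4 (61.9 and 59.0 CPM) and Mcm6 (65.9 and 62.3 CPM) were close. Pclaf, by contrast, was at 17.0 and 11.3 CPM (0.60, 0.34 to 0.85), and Uhrf1, which carries DNA methylation through replication, at 11.3 and 6.81 CPM (0.73, 0.41 to 1.06). Of the 5 nucleotide genes 2 were higher. Rrm2 (13 and 5.78 CPM, log2 1.17) and Tk1 (12 and 5.92 CPM, 1.02) were over 2-fold higher in TG, and Rrm1 (25.2 and 25.3 CPM), Dut (26.6 and 27.5 CPM) and Tyms (log2 -0.25, -0.62 to 0.12) were not. Mki67 was at 33.6 and 18.7 CPM (0.84, 0.65 to 1.03), Stmn1, which destabilises microtubules, at 50.1 and 33.7 CPM (0.57, 0.42 to 0.72), and Hmgb2 at 450.3 and 427.5 CPM (0.07, 0.03 to 0.12). A set of 10 members (Hmgb2, Stmn1, Dut, Pcna and Mcm2 to Mcm7) was chosen as widely held, although Cenpa, which was not in it, had UMIs in more cells outside cluster 7 (13.2% in TG and 10.5% in WT) than Dut (8.46% and 7.45%). Leaving the set out brought the summed log2 ratio from 0.17 to 0.55.

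**Figure D2:**
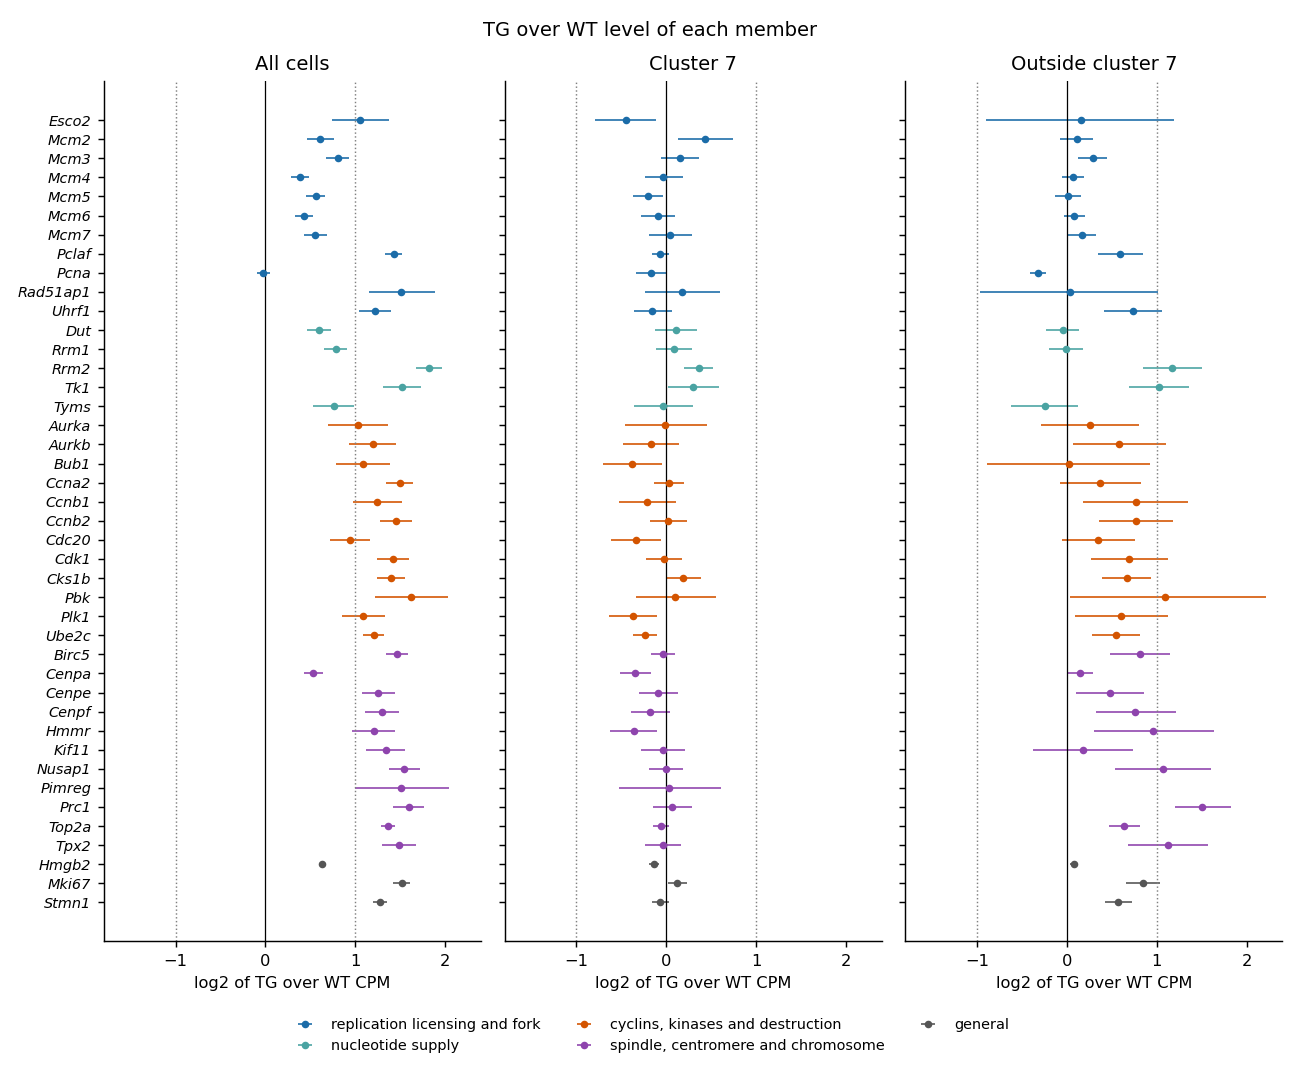
log2 of the TG over WT level of each gene with 95% conditional binomial intervals, over all cells, in cluster 7 and outside it, coloured by role, with dotted lines at 2-fold in either direction. Points lie to the right over all cells (median 1.23), around 0 in cluster 7 (median -0.04) and mostly to the right outside it (median 0.55), with Prc1 furthest right outside at 1.51.

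To find single cells with the programme, distinct members were counted in each cell, and a cell with at least 8 of the 42 was taken to hold the cell cycle signature. Cells of cluster 7 held a median of 27 members in TG and in WT. Cells outside it held a median of 2, and 6.65% of them in TG and 10.6% in WT held none. The signature is a range on a scale and not a cell type. Outside cluster 7, 67 of 121 TG signature cells and 31 of 69 WT signature cells held only 8 or 9 members, and 272 TG cells and 171 WT cells held 6 to 9. At the far end, 9 TG cells and 11 WT cells outside cluster 7 held 20 or more.

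**Figure D3:**
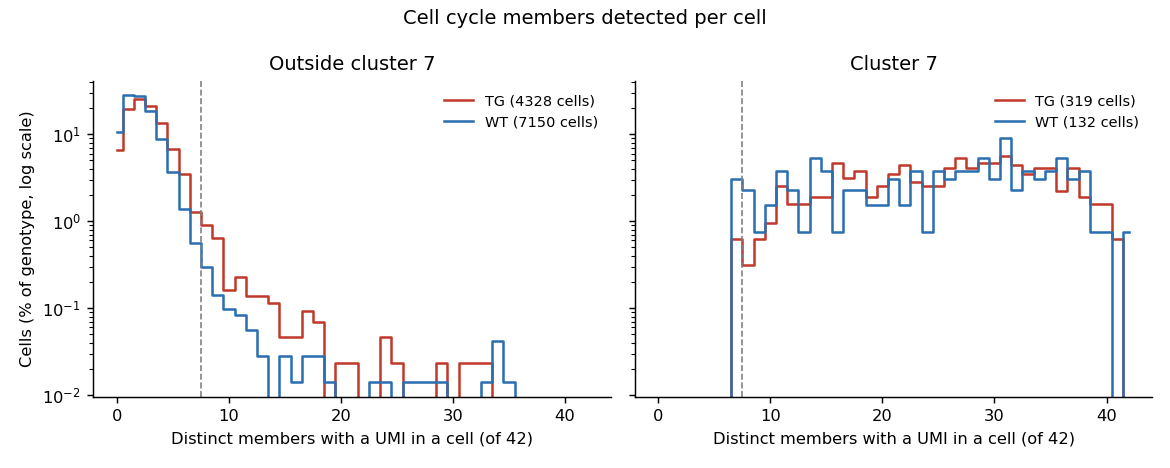
Distinct members with a UMI in a cell, from 0 to 42, against the percent of the genotype's cells in that panel on a log axis, outside cluster 7 and in it, with a dashed line below 8 members. Outside cluster 7 both lines fall steeply from a median of 2 with a thin tail up to 33 members in TG and 35 in WT, and in cluster 7 the median is 27 in both.

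Signature cells were a larger share of TG cells than of WT cells. Over all cells they were 438 of 4647 in TG (9.43%) and 197 of 7282 in WT (2.71%), a difference of 6.72 percentage points (5.82 to 7.66). Outside cluster 7 they were 121 of 4328 (2.80%) and 69 of 7150 (0.965%), a difference of 1.83 points (1.31 to 2.4). So 27.6% of TG signature cells and 35.0% of WT signature cells lay outside cluster 7, a difference of -7.40 points (-15.4 to 0.281) that was -15.9 points in the thinned cells described next. TG cells were deeper, and with each cell thinned to 1000 UMIs, where 4 members were asked for, the shares outside cluster 7 were 2.56% and 1.24% (difference 1.32 points, 0.804 to 1.88). Leaving out cells with both T and B cell markers gave a difference of 1.45 points outside cluster 7. With TG cells weighted to the cell type names of WT, the TG share was 3.12%. With at least 12 members the shares were 0.855% and 0.350%, from 37 and 25 cells.

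By kind of cell, the difference outside cluster 7 had an interval above 0 in lymphocytes and not in myeloid cells. Among T, NKT and NK cells 79 of 2571 TG cells (3.07%) and 32 of 4654 WT cells (0.688%) held the signature, a difference of 2.39 points (1.72 to 3.152). At 12 or more members these were 16 and 3 cells, a difference of 0.558 points (0.288 to 0.946). B cells had 14 of 1261 (1.11%) and 7 of 1696 (0.413%), a difference of 0.697 points (0.072 to 1.47), which at 12 members was 4 cells in each. Myeloid cells had 20 of 458 (4.37%) and 27 of 771 (3.50%), a difference whose interval ran from -1.30 to 3.39 points. T, NKT and NK cells made up 65.3% of signature cells outside cluster 7 in TG and 46.4% in WT, and myeloid cells 16.5% and 39.1%. At 12 members T, NKT and NK cells made up 43.2% in TG and 12% in WT, and myeloid cells 35.1% and 60%. Myeloid cells were then the larger kind in WT. Whether the difference between genotypes itself differed between these kinds of cell was not tested.

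**Figure D4:**
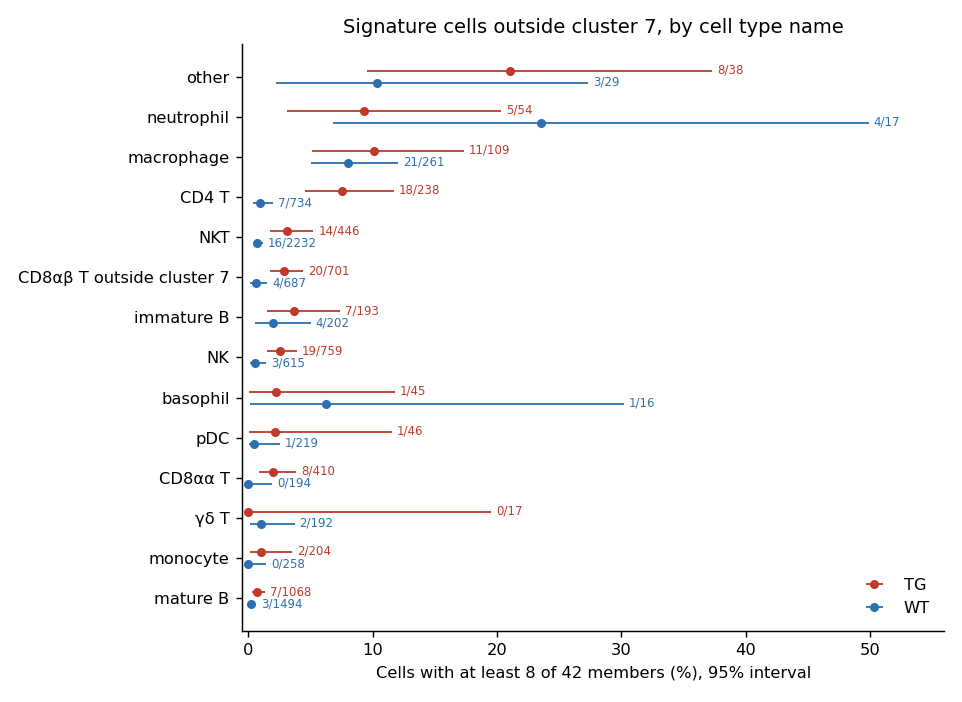
Percent of cells outside cluster 7 with at least 8 of 42 members for each cell type name, with 95% Clopper-Pearson intervals and the counts behind each point, TG in red and WT in blue. CD4 T cells (7.56% against 0.954%), CD8αβ T, NK and NKT cells have intervals that lie apart, and macrophages (10.1% against 8.05%) and neutrophils have high shares with wide, overlapping intervals.

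At the cut of 8 members, CD4 T cells had the widest gap among the names with over 100 cells in each library, counting cells outside cluster 7. The signature was held by 18 of 238 TG cells (7.56%) and 7 of 734 WT cells (0.954%), a difference of 6.61 points (3.71 to 10.7), and the thinned shares were 4.62% and 1.499%. At 12 members CD4 T cells had 5 and 2 cells, a difference of 1.83 points (0.431 to 4.56). This was below the difference in macrophages at that cut (2.21 points, -2.35 to 8.72). Of 23 members with enough UMIs, 8 were at least 2-fold higher in TG, against 5.41% of all genes, with 12 intervals above 0 and none below. Their median log2 ratio was 0.73, where all genes had 0.08. Markers of other cells were also higher in TG CD4 T cells, at 132.6 and 65.2 CPM for B cells, 222.5 and 98.1 for plasma cells, 468.7 and 169.0 for neutrophils and 625.0 and 360.6 for monocytes, and their part was not tested. Birc5 was at 28.4 CPM in TG against 2.57 CPM in WT, from 24 and 5 UMIs (log2 3.47, 2.05 to 5.21), Ccnb2, cyclin B2, at 24.9 and 5.65 CPM (2.14, 1.02 to 3.34) and Cks1b at 28.4 and 8.22 CPM (1.79, 0.82 to 2.80). Stmn1 (72.2 and 79.1 CPM), Pcna (129.0 and 137.7 CPM) and Mcm4 (log2 0.10, -0.39 to 0.58) were close. Without the 10 widely held members, 10 TG cells and 2 WT cells had 6 or more of the other 32 (4.202% and 0.272%).

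The CD4 T cells came from 3 clusters in unlike parts. Cluster 6 made up 58 of the 238 TG cells and 397 of the 734 WT cells, so the values over the whole name compare different mixtures. Differences between clusters were not tested. In cluster 9, whose leading genes by fold include Il1rl1 (chosen after the values were seen, as are the other leading genes below), 12 of 132 TG cells (9.09%) and 2 of 272 WT cells (0.735%) held the signature, a difference of 8.36 points (4.09 to 14.5). In cluster 21, which Foxp3, the factor of regulatory T cells, and Ctla4 lead, the counts were 6 of 48 and 4 of 65, a difference of 6.35 points (-4.54 to 19.1) that turned with thinned cells. In cluster 6 they were 0 of 58, which allows up to 5.17%, and 1 of 397. All 10 signature cells of cluster 21 held Foxp3 and 9 held Cd4, and 11 of the 14 in cluster 9 held Cd4. Of the 103 other cells of cluster 21, 89 held Foxp3 and 81 held Cd4, and 293 of the 390 other cells of cluster 9 held Cd4. Mki67 was at 75.7 CPM in TG against 32.3 CPM in WT in cluster 9, from 21 and 15 cells with a UMI, and at 87.2 and 92.9 CPM in cluster 21. In mature B cluster 1, a resting population, 3.02% of TG cells and 0.903% of WT cells held a Mki67 UMI, at median depths of 2898 and 1978.

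CD8αβ T cells outside cluster 7 held the signature in 20 of 701 TG cells (2.85%) and 4 of 687 WT cells (0.582%), a difference of 2.27 points (0.923 to 3.82). The libraries held different cells under this name. Cluster 12 had 249 TG and 73 WT cells and nearly the same share in each (2.81% and 2.74%), from 7 and 2 cells. In thinned cells cluster 12 had 12 TG cells (4.82%) and 0 WT cells, a difference from -0.581 to 8.23 points. Cluster 4 had 145 TG and 363 WT cells with 3 signature cells and 1. Cluster 13 had 7 of 177 and 0 of 138, a difference of 3.95 points (0.573 to 7.94), and cluster 18 had 3 of 115 and 0 of 37, and cluster 23 0 of 15 and 1 of 76. Without the widely held members the counts over the name were 3 and 0, with a difference from -0.196 to 1.25 points. B cell markers were at 143.2 CPM in TG and 63.0 in WT under this name outside cluster 7, monocyte markers at 2068 and 961.1, neutrophil markers at 300.6 and 152.3 and erythroid markers at 0.347 and 238.4, and their part in the ratios was not tested. Of 28 members measured there, 10 were at least 2-fold higher in TG, against 4.13% of all genes. Rrm2 was at 16.3 and 3.29 CPM, from 47 and 7 UMIs (log2 2.31, 1.15 to 3.70), and Cdk1 and the kinetochore protein Cenpf each had 20 and 3 UMIs (2.30, 0.54 to 4.69). These genes reached the minimum of 20 UMIs through TG alone. Cenpa (-0.33), Dut (-0.27) and Pcna (-0.23) had the lowest ratios, with intervals that held 0. CD8αα T cells, which are cluster 2, held the signature in 8 of 410 TG cells (1.95%) and 0 of 194 WT cells, which allows a share of up to 1.55%. The interval of the difference, from -0.214 to 3.80 points, held 0, and at 12 members there were 0 cells in both. Without the widely held members the CD8αα T counts were 2 and 0, with a difference from -1.49 to 1.76 points. Erythroid markers were at 0.755 CPM in TG against 4893 CPM in WT CD8αα T cells, and B cell markers at 177.4 and 58.2 CPM, and their part in the ratios was not tested. There 4 of 16 members were at least 2-fold higher in TG, against 5.37% of all genes. The minimum of 20 UMIs is a sum over both libraries, and Stmn1, Mki67 and Tk1, given next, each reached it through TG alone. Members low in both libraries could not enter, so this count depends in part on the minimum. Stmn1 was at 24.2 and 1.82 CPM, from 32 UMIs and 1 UMI (log2 3.73, 1.15 to 9.08), Mki67 at 27.2 and 3.64 CPM (2.90, 0.94 to 6.00) and Tk1 at 17.4 and 3.64 CPM (2.26, 0.24 to 5.38). Dut (-0.34), Pcna (-0.30) and Pclaf (-0.17) were at the other end.

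NK cells held the signature in 19 of 759 TG cells (2.50%) and 3 of 615 WT cells (0.488%), a difference of 2.02 points (0.720 to 3.43). At 12 members these were 6 and 0 cells, and without the widely held members 5 and 0, with a difference from -0.0675 to 1.53 points. Of 26 members, 9 were at least 2-fold higher in TG, against 3.92% of all genes, and the median log2 ratio was 0.49. Prc1 was at 39.9 CPM in TG against 6.23 CPM in WT, from 91 and 10 UMIs (log2 2.68, 1.73 to 3.79), Tk1 at 10.5 and 1.87 CPM (2.49, 0.77 to 4.87) and Cdk1 at 8.32 and 1.87 CPM (2.16, 0.39 to 4.56). Mcm5 (-0.23), Pcna (-0.07) and Tyms (-0.04) were lowest. The libraries did not hold the same NK cells. The 5 T cell markers summed to 3223 CPM in TG NK cells and 999 CPM in WT NK cells, the 5 NK markers to 2299 and 4012 CPM, and cluster 11 had 343 TG cells and 22 WT cells. Monocyte markers were at 1654 and 802.1 CPM, neutrophil markers at 411.9 and 206.1, B cell markers at 153.8 and 66.6 and erythroid markers at 1.31 and 1703, and their part was not tested. In clusters 3 and 11, which hold most TG cells of this name, T cell markers were at 2965 and 3638 CPM, against 468 CPM in cluster 8. NK markers were at 2064 and 1564 CPM, against 5280 CPM in cluster 8. These levels go against the name in part. Yet Ncr1, an NK marker, was among the leading genes of cluster 3, at 739.3 CPM against 69.6 CPM in all other cells. Within single clusters cluster 3 had the signature in 7 of 263 TG cells and 0 of 306 WT cells, which allows up to 0.980%. Cluster 8, where T cell markers were low (468 CPM), had it in 6 of 153 and 3 of 287 (difference from -0.0204 to 7.30 points).

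NKT cells held the signature in 14 of 446 TG cells (3.139%) and 16 of 2232 WT cells (0.717%), a difference of 2.42 points (1.09 to 4.50). Without the widely held members this was 1 cell in each library, a difference of 0.179 points (-0.0991 to 1.21). NK markers were at 470.7 CPM in TG and 803.3 in WT under this name, neutrophil markers at 669.5 and 308.7 and B cell markers at 108.8 and 37.6, and their part was not tested. Of 27 members, 7 were at least 2-fold higher in TG, against 4% of all genes, with a median log2 ratio of 0.26. Prc1 led again, at 18.7 and 3.63 CPM (log2 2.36, 1.56 to 3.19), followed by Rrm2 (1.60, 0.69 to 2.48) and Tpx2 (1.49, 0.06 to 2.86), and the kinetochore motor Cenpe (-0.56), Tyms (-0.42) and Pcna (-0.32, -0.53 to -0.10) were lowest. The small cluster 19, led by Nr4a3, Tnfrsf9 and Il2ra, which T cells express after stimulation, had the signature in 6 of 20 TG cells (30%) and 7 of 127 WT cells (5.51%), a difference of 24.5 points (8.11 to 46.6). Its members were mainly early ones. Mcm6 was at 219.9 CPM in TG against 114.5 CPM in WT there, second only to cluster 7 among TG clusters, and Mki67 had 17.6 CPM in TG and no UMI in WT. Without the 10 widely held members 1 of its TG cells and none of its WT cells reached 6 of 32.

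UMIs of several genes were also more frequent in TG among cells without the signature. Cluster 7 held 13.1% of the UMIs of named TG cells and 4.22% of those of named WT cells. The libraries also held cells with no genotype name, with members at 3644 CPM in the TG library and 3711 CPM in the WT library. The part of free RNA from any of these cells was not tested. In cells outside cluster 7 below 8 members Prc1 was at 14.6 CPM in TG against 4.76 CPM in WT, from 222 and 99 UMIs (log2 1.61, 1.27 to 1.97). In the signature cells it was at 62.0 and 58.3 CPM (0.09, -0.59 to 0.80). Prc1 was held by 70 of 759 TG NK cells (9.22%) and 8 of 615 WT NK cells (1.30%), and by 1.78% and 0.736% of mature B cells. Below 8 members Nusap1 was at 3.153 and 1.01 CPM (1.64, 0.87 to 2.46), and Mki67 was at 22.1 and 10.5 CPM (1.07, 0.82 to 1.33). Mki67 had a like ratio in mature B cells (log2 1.13), and in mature B cluster 1 a Mki67 UMI was found in 3.02% of TG and 0.903% of WT cells. Over all cells outside cluster 7 below 8 members Pcna was at 104.0 and 133.9 CPM (-0.36, -0.45 to -0.27), so the lower TG level of Pcna also lay in cells without the signature.

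Myeloid cells with the signature lay mainly in clusters 24, 22 and 15, and in each the interval of the difference between TG and WT held 0. Cluster 24, named neutrophil, held the highest level of the list outside cluster 7, where 5 of 54 TG cells and 4 of 17 WT cells had the signature (difference from -38.6 to 3.30 points). Its leading genes Ngp, Camp and Ltf encode granule proteins made by neutrophil precursors, and all 9 signature cells held each of them. Of the 62 other cells of the cluster, 62 held Ngp, 53 held Camp and 51 held Ltf. The earlier granule genes Mpo and Elane were found in 0 and 1 of the 9 signature cells. In cluster 24, Mki67 was at 187.1 CPM in TG against 424.5 CPM in WT, Top2a at 252.5 and 457.1 CPM, and Hmgb2 at 1717 and 2177 CPM, with the Mki67 UMIs in 7 and 4 cells. Cluster 24 was the next cluster after cluster 7 for 24 of the 42 genes in TG and 27 in WT.

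Macrophages held the signature in 11 of 109 TG cells (10.1%) and 21 of 261 WT cells (8.05%), a difference of 2.05 points (-3.83 to 9.63), and with thinned cells the order turned, to 4.59% and 5.75%. Cluster 22, where 5 of 20 TG cells and 16 of 80 WT cells had the signature (difference from -12.1 to 28.1 points), carries the name macrophage and goes against it. The macrophage markers summed to 1.36 CPM in cluster 22, against 10418 CPM in cluster 27, and its leading genes Xcr1 and Tlr3 are known from a type of dendritic cell. Of its 21 signature cells 17 held Xcr1 and none held Adgre1, the gene of F4/80. Of its 79 other cells 44 held Xcr1 and 1 held Adgre1. Cluster 15, also named macrophage, had it in 6 of 89 and 5 of 158 (difference from -1.84 to 10.995 points). Cluster 27, found in WT only, had 0 of 23. Of 30 members over the macrophage name, 1 was at least 2-fold higher in TG (Tk1, 24.5 and 10.0 CPM, log2 1.29, 0.14 to 2.45), against 4.52% of all genes, and 8 were at least 2-fold lower, against 5.07%. Nusap1 had 2 and 25 UMIs (-2.45, -5.57 to -0.45), the mitotic kinase Aurkb 3 and 25 (-1.87, -4.24 to -0.15) and Tyms 3 and 21 (-1.61, -4.00 to 0.13). Nusap1, Aurkb and Tyms reached the minimum of 20 UMIs through WT alone, so the count of lower members depends in part on the minimum. Mcm7 (0.78) and Mcm2 (0.65) were on the higher side with intervals that held 0. The macrophage name held clusters 15, 22 and 27 in unlike parts in TG and WT, so these ratios compare different mixtures. Summed members were at 1022 CPM in TG and 874.0 in WT in cluster 15, and at 1767 and 2708 in cluster 22. Over the whole name macrophage markers were at 40.8 CPM in TG against 1267 CPM in WT, monocyte markers at 3718 and 7608 and NK markers at 207.5 and 41.4. The part of these markers in the ratios was not tested. Cells named monocyte held neutrophil markers at 63984 CPM in TG against 44316 CPM in WT and monocyte markers at 2553 and 1971 CPM, which goes against the name. In these cells only Pcna, Cenpa, Hmgb2, Mcm4 and Stmn1 had enough UMIs, and their median log2 ratio was -0.11, which turned to 0.17 with no minimum of UMIs.

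In mature B cells 7 of 1068 TG cells (0.655%) and 3 of 1494 WT cells (0.201%) held the signature, a difference from -0.0596 to 1.16 points, and at 12 members the counts were 1 and 2. Of the cells with 8 or more members, 4 of 7 and 3 of 3 lay in cluster 17, where T cell markers (2689 CPM) stood beside B cell markers (3952 CPM). Of 30 members in mature B cells, 1 was at least 2-fold higher in TG, against 1.94% of all genes. It was Mki67, at 15.2 and 6.96 CPM (log2 1.13, 0.41 to 1.88), and Hmgb2 was lower in TG at 199.4 and 290.0 CPM (-0.54, -0.68 to -0.40). T cell markers under the mature B name were at 305.4 CPM in TG and 689.1 in WT, and NK markers at 39.0 and 97.4. Neutrophil markers were at 296.5 and 180.4 CPM and erythroid markers at 1.19 and 99.4, and the part of these markers was not tested. Immature B cells held the signature in 7 of 193 TG cells (3.63%) and 4 of 202 WT cells (1.98%), a difference from -1.88 to 5.51 points. These cells are cluster 10, whose leading genes include Zbtb32 (55.4% of its cells), Fcrl5 (48.6%) and Ighg3, an antibody constant gene (11.9%). The deposited name was taken as given and was not tested. Neutrophil markers in immature B cells were at 296.3 CPM in TG and 145.5 in WT, macrophage markers at 21.3 and 6.88 and T cell markers at 189.9 and 285.1. The part of these markers was not tested. Of 17 members in immature B cells, 6 were at least 2-fold higher in TG, against 2.96% of all genes. They were led by Stmn1 (30.3 and 6.88 CPM, log2 2.14, 0.95 to 3.55), Uhrf1 (32.7 and 7.87 CPM, 2.06, 0.94 to 3.36) and Pclaf (29.5 and 8.85 CPM, 1.74, 0.65 to 2.97), and Cenpa (-0.78), Hmgb2 (-0.72) and Mki67 (-0.61, -1.90 to 0.63) were lowest. Cluster 26, named other, held plasma cell markers at 32739 CPM, and 8 of 32 TG cells (25%) and 3 of 14 WT cells (21.4%) there held the signature, an order that turned at 12 members (12.5% and 21.4%) and without the widely held members (18.8% and 21.4%). All 11 carried Jchain, the joining chain of secreted antibodies, as did all 35 other cells of cluster 26. Mki67 was at 219.2 CPM in TG against 216.1 CPM in WT in cluster 26.

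The members that made up the signature differed by cell type. As a share of the UMIs of the replication, nucleotide and mitotic members in signature cells, the replication and nucleotide ones were 42.1% in cluster 7 in TG and 40.2% in WT. Outside cluster 7 they were 55.1% (53.2% to 57.0%) and 48.8% (46.6% to 51.1%), an order that turned, to 63.3% and 65.0%, with cells of 5 or more members. These are pooled UMIs, to which deep cells add most. The medians over single signature cells were 71.4% in TG and 83.3% in WT outside cluster 7 and 42.6% and 45.6% in it, so their order between TG and WT was opposite to that of the pooled shares. By cell type name outside cluster 7, the pooled TG shares were 88.8% in NKT cells, 84.5% in immature B cells and 78.1% in NK cells. The pooled share was 45.6% in TG CD4 T cells and 24.7% in the 5 TG neutrophils, where mitotic transcripts prevailed. Pooled WT shares were 85.3% in NKT cells, 59.2% in CD4 T cells and 35.6% in macrophages. No phase was called for any cell. Much of these shares came from the licensing factors, and without Pcna, Dut and Mcm2 to Mcm7 the values were 28.5% and 26.7% in cluster 7 and 25.02% and 24.2% outside it.

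**Figure D5:**
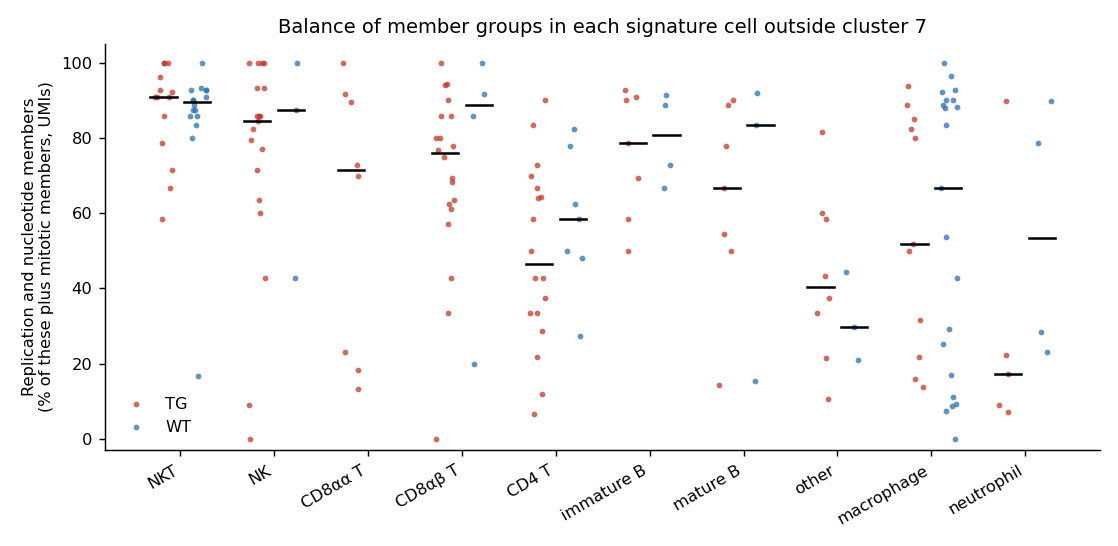
UMIs of replication and nucleotide members as a percent of these plus the mitotic members in each signature cell outside cluster 7, by cell type name, with TG in red, WT in blue and a bar at the median. NKT cells lie near the top (88.8% of pooled TG UMIs) and TG neutrophils near the bottom (24.7%).

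Genes that did not choose the cells differed with the signature. Of 61 other cell cycle genes with enough UMIs, 47 were at least 2-fold higher in TG signature cells than in the remaining TG cells outside cluster 7, against 6.13% of all genes, and in WT 56 of 63, against 9.71%. Their median log2 ratios were 2.16 and 3.09. The 4 of these with the most UMIs are held by many resting cells and were nearer to them, among them Smc4, a condensin subunit (317.1 against 230.3 CPM in TG) and Dnmt1, the maintenance DNA methyltransferase (110.0 against 65.1 CPM). Of 21 G1 cyclins, E2F and Myb regulators 6 in TG and 10 in WT were 2-fold higher, with medians of 0.56 and 0.65, and Ccnd2, cyclin D2, was at 781.7 against 759.8 CPM in TG. Of the CDK inhibitors and quiescence genes, 2 of 13 in TG and 2 of 12 in WT were at least 2-fold higher and 1 and 2 at least 2-fold lower, against 10.1% and 18.6% of all genes, with medians of -0.44 and -0.55. Btg1, which holds back proliferation, was at 415.4 against 856.5 CPM in TG (log2 -1.04, -1.20 to -0.89) and 448.0 against 1092 CPM in WT (-1.29, -1.48 to -1.09), and Klf2, a quiescence factor of T cells, at 503.2 against 828.1 CPM in TG.

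Cell type, depth and mixed content also differed with the signature, so the comparisons of signature cells with the rest are also comparisons between cell types. Of the neutrophil precursor markers 6 of 6 in TG and 6 of 7 in WT were at least 2-fold higher in signature cells (medians 3.23 and 5.11). These counts were 3 of 5 and 4 of 5 for the basophil markers and 4 of 6 and 2 of 6 for the plasma cell markers. Of all genes, 6.13% in TG and 9.71% in WT were at least 2-fold higher. Among cells named basophil, 1 in each library held the signature. B cell markers had medians of -1.17 and -0.85, and in WT all 6 macrophage and all 5 erythroid markers were at least 2-fold lower, against 18.6% of all genes. Signature cells outside cluster 7 had a median of 6577 UMIs in TG and 6945 in WT, against 3176 and 2623 in the remaining cells there. T and B cell markers occurred together in 26.4% of TG and 14.5% of WT signature cells, against 10.8% and 4.79%. For mature B signature cells these were 5 of 7 and 3 of 3, and for NK signature cells 0 of 19 and 0 of 3. The part of such cells in the signature was not tested beyond leaving them out, as given with the shares above. CD71 antibody, which reads the transferrin receptor of growing cells, was at 926.4 CPM of antibody counts in TG signature cells outside cluster 7 against 720.0 CPM in the rest, and at 989.8 against 868.7 CPM in WT. In cluster 7 it was at 1292 and 1559 CPM. Within CD4 T cells the CD71 values were 578.8 against 453.2 CPM in TG and 605.6 against 332.1 CPM in WT, from 23 and 12 counts in the signature cells. In TG NKT cells they were 400.2 against 406.6 CPM, and in WT NK cells 624.7 against 1316 CPM, the latter from 4 counts, so CD71 did not go the same way in each type.

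Cluster 7 itself carries the name CD8αβ T, and Cd4 transcripts were about as common in it as Cd8 transcripts. In TG 103 of its 319 cells (32.3%) held Cd4 and no Cd8 transcripts, 88 (27.6%) held Cd8 and no Cd4, 78 (24.5%) held both and 50 held neither. In WT these were 39 (29.5%), 38 (28.8%), 14 (10.6%) and 41 of 132. As background, at lower depth, Cd4 was found in 3.79% of TG and 1.88% of WT cells of mature B cluster 1 and Cd8b1 in 2.82% and 3.61%, and in CD4 T cluster 6 Cd8b1 was found in 12.1% and 4.79%. How many of the cells with both were background or doublets was not tested. The summed members lay within a narrow range in both kinds, at 19297 CPM in TG cells with Cd4 only and 18079 CPM in those with Cd8 only, and at 21170 and 19405 CPM in WT. Rrm2 was at 546.1 and 583.9 CPM in these TG kinds. The signature CD4 T cells counted above are those that the clustering placed outside cluster 7.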

How the data were processed

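Liver CD45+ cells of TG and WT mice were captured with the BD Rhapsody system, 1 library per genotype. The deposited UMI counts per gene and cell and per antibody were made by the authors with the vendor's pipeline, version 1.9 per the file headers, with STAR on mm10, and their filter on cells and genes is not given in the sources used here. Deposited natural log values hold centred antibody counts, and the authors also gave the percent of mitochondrial UMIs per cell. Genotype, cell type name and cluster were the authors' own, made after canonical correlation alignment in Seurat 4.0.1, and their normalized RNA values were not used.

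The genes, their grouping by role and the marker and cell cycle lists were chosen with earlier results of these data known. Counts were summed over the cells of a genotype within each name or cluster and divided by all their UMIs (CPM). No test was made between genotypes, since neither had a replicate. Levels carry exact Poisson intervals, shares Clopper-Pearson intervals, differences of shares Newcombe intervals, and ratios exact conditional binomial intervals, all at 95%. A gene was counted in a comparison with at least 20 UMIs over both groups, and names needed 100 cells in each library for gene ratios. A gene could thus enter through the group in which it was high, and the counts past 2-fold depend in part on this. A share of 0 is given with the limit that 3 counts would set. Every one of the 42 genes was assessed. Values were printed for up to 4 genes of each role group with the most UMIs, for the 3 highest and 3 lowest ratios in each set, and for up to 4 genes with the most UMIs of each further list, and genes named outside this rule were picked after their values were seen. Scrublet in scanpy 1.11.5 was run per genotype with an expected rate of 5%, and the doublets it called were kept except in an alternative. Thinned cells were drawn down to 1000 UMIs. TMM factors came from edgeR 4.0.16 in R 4.3.3, and other steps used Python 3.11.15, numpy 2.4.6, scipy 1.17.1 and pandas 2.3.3. The scripts were tested on simulated data. The sums of the 42 genes in each genotype, 84 in all, were the same in the library files and in the filtered table. Promoter sequences were those of RefSeq for GRCm38.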

Additional observations from a re-analysis of the deposited data

Results flagged for a closer look

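Cells that the authors' table did not name held many member UMIs. In the library that held WT mice, 16829 cells with no genotype name had 3711 CPM of the 42 genes, and 9.99% of them held the signature, against 1891 CPM and 2.71% among the named WT cells. In the library that held TG mice, 5379 unnamed cells had 3644 CPM and 9.31%, against 3542 CPM and 9.43% among the named TG cells. Restricted to the depth range of the named cells the unnamed cells had 3625 and 3301 CPM. Which mice these cells came from is not given in the sources used here.

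The summed members moved in opposite directions in cells named CD4 T, with a log2 ratio of TG over WT of 0.61, and in cells named macrophage, with -0.34. There was 1 library per genotype, so the difference between these ratios was not tested. The clusters under each name did not all go the same way. Under the macrophage name cluster 15 was at 1022 CPM in TG and 874.0 in WT, cluster 22 at 1767 and 2708, and cluster 27 had no TG cells. Under the CD4 T name cluster 6 was at 1084 and 965.1 CPM, cluster 9 at 2215 and 1386 and cluster 21 at 1846 and 2087.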

How the results depend on the processing

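The differences in signature share and in summed level, over all cells and outside cluster 7, kept their direction under the alternatives. The replication and nucleotide share outside cluster 7 was higher in TG with 8 members and lower with 5. The mature B share turned from 0.655% and 0.201% to 0.0936% and 0.134% with 12 members. The median of monocytes, from 5 genes, turned from -0.11 to 0.17 with no minimum, and the signature shares of macrophages and monocytes were higher in TG with whole cells and lower with thinned cells. Basophils turned too with 12 members and without the widely held ones, and so did cluster 26. In thinned cells clusters 4, 5, 6, 11, 15, 18, 21, 23 and 26 turned as well, and cluster 0 did so without the widely held members. The limits are that each genotype was 1 library, that signature cells were few in most names and that depth sets how many members a cell can show. Of the recomputed values, 131 stayed within their counting interval or within 1.5 times the count, and 53 moved further. No paired analysis was possible because each genotype had a single library. The difference between TG and WT in the share of signature cells was 11.8 points with 5 members, 5.37 with 12, 5.63 without the 10 widely held members and 5.70 without cells holding T and B cell markers over all cells. Outside cluster 7 it was 7.59 points with 5 members, 0.505 with 12 and 0.676 without the widely held members. For the share of signature cells outside cluster 7 the difference was -15.9 points in thinned cells. The log2 ratio of summed members over all cells was 0.88 with totals that leave out ribosomal and mitochondrial genes, 0.78 with equal weight for each cell, 0.88 without Scrublet doublets and 1.31 without the widely held members, where it was 0.55 outside cluster 7. Median log2 ratios were 1.21 over all cells, -0.064 in cluster 7 and 0.63 in CD4 T cells with totals that leave out ribosomal and mitochondrial genes. Without Scrublet doublets they were 1.18 over all cells, 0.50 outside cluster 7 and -0.44 in monocytes. With no minimum they were 0.51 outside cluster 7, 1.03 in CD4 T, 0.52 in CD8αα T, 0.54 in CD8αβ T outside cluster 7, 0.70 in NK, 0.35 in NKT, 0.87 in immature B, -0.74 in macrophages and 0.17 in monocytes, since genes with few UMIs then entered. TMM scaling gave 0.61 in CD4 T cells and took the median of all genes there from 0.08 to -0.04. The replication and nucleotide share in signature cells, without the widely held members, was 28.5% in TG and 26.7% in WT in cluster 7, and 25.02% and 24.2% outside it, and with 5 members it was 63.3% in TG and 65.0% in WT outside. Weighting TG to the WT names or clusters, and leaving out barcodes found in both libraries, were chosen after seeing the data and gave TG shares outside cluster 7 of 3.12%, 3.17% and 2.82%. Apart from the change of genes under no minimum, the cause of these shifts was not tested.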
